A study of Rattus norvegicus with 8 samples.

Results

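The cadherins and nonclustered protocadherins of the rat nodose ganglion are described here across its neuron types, glia and vessel cells. The set holds every row of the deposited gene list whose symbol is Cdh or Pcdh followed by a number, without Cdh23 and Pcdh15, which belong to the mechanosensory linkage of hair cells. The rule found 32 of 30560 rows. These are 5 type I classical cadherins, 13 type II classical cadherins, 4 other cadherins, 4 rows of delta-1 protocadherins, 4 delta-2 protocadherins and 2 other nonclustered protocadherins. Pcdh7 has 2 rows, of which ENSRNOG00000063828 held 37013 transcript counts and ENSRNOG00000012367 held 174, and reads may have been divided between them. The first of them is meant by Pcdh7 below.

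The nodose ganglion holds the cell bodies of vagal sensory neurons. Nuclear RNA was counted in single nuclei of nodose ganglia from experimentally naïve Long Evans rats at 8 weeks of age, 18 of each sex, with no treatment, transgene or mutant allele in any group. Each pool combined the ganglia of 1 side from 6 rats, and there were 3 pools for every combination of labelled sex and side. The design sets the sides and the sexes against each other. A pool's name gives its labelled sex (M or F), then its side (L or R) and a number, so that FL2 is a pool of left ganglia labelled female. The left and right pools of a sex drew on the same 18 rats, so they are not independent animals, and p-values measure the spread between pools. Every pool was spread over 8 sequenced sublibraries.

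Classical cadherins are membrane proteins whose extracellular repeats bind calcium and the same or a related cadherin on a neighbouring cell, while their cytoplasmic tail holds catenins that connect to actin. Type I members, such as E-cadherin and N-cadherin, form the main adherens junctions of epithelia and nervous tissue, and type II members are known for the combinations in which groups of neurons carry them during the sorting of cell bodies and the matching of synaptic partners. Delta protocadherins have further extracellular repeats, adhere more weakly and act largely through signalling partners such as the WAVE complex, which drives actin branching.

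The matrix held 36741 nuclei, of which 36738 were kept, with a median of 2680 transcript counts (unique molecular identifiers, UMIs). Pools held 1738 to 4849 nuclei and 7139364 to 19456287 UMIs. Y-linked RNA went against the label in ML1 and FL1: it stood at 2.88 CPM (UMIs scaled to a common total) in the library labelled ML1, against 84.4 to 91.3 in the other male-labelled pools, and at 88.6 CPM in the library labelled FL1, against 2.73 to 3.95 in the other female-labelled pools. The doublet caller marked 2 nuclei and so did not work, and 1865 well combinations occurred in more than 1 sublibrary. Technical spread was small for abundant members: the coefficient of variation of Cdh18 in neurons was 2.33% over the 8 sublibraries and 8.19% over the 12 pools.

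Nuclei were clustered without the members among the clustering genes and named from marker lists, so the names mean likeness to that type. Neurons made up 25455 nuclei, satellite glia (the glia that wrap neuronal cell bodies) 1576, myelinating Schwann cells 1507, endothelial cells 841 and mural cells (the pericytes and smooth muscle around vessels) 212. Mural cells entered the tests from 10 pools and the other classes from all 12. Nuclei only described are 85 of fibroblasts, 155 of skeletal muscle, 113 of them from FR2, and 798 of 2 unnamed clusters (503 and 295 nuclei), which share Grin2b and Adarb2 as leading genes and are summed here. The fibroblast nuclei also held the 6 markers of a perineurial cell list at 3259 CPM, the highest among these classes, beside 1019 in the unnamed clusters. Their name is therefore loose. In all 6907 nuclei, 18.8%, lay outside the named classes, those 798 included, and most of them came from clusters with much neuronal RNA. Even so, the 11 neuron markers summed to 66.2% of their neuronal level in satellite glia, with pools from 53.7 to 80.1%, to 41.1% in myelinating Schwann cells, to 41.9% in endothelial cells and to 26.4% in mural cells. Neuron subclusters that matched the satellite glia list (1437 nuclei) or the skeletal muscle list (141 nuclei) were also kept out of the neurons. In the neurons that remained, the 9 satellite glia markers stood at 4.02% of their level in satellite glia, a value that this removal lowers. Levels below are CPM, with the UMI total of that pool and class as the denominator, and are compared within a gene, never between genes.

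The members that could be tested divided between neurons and glia. Counts were summed per pool and class, and a member was called where edgeR's quasi-likelihood test gave an adjusted p under 0.05 and a difference of at least 2-fold from the mean of the other 4 classes. Of 32 members 19 passed the filter on low counts in this fit, and the remaining 13 did not and were not tested in it. In satellite glia 10 of the 19 were called higher, where 6.82% of all genes tested were. In neurons 5 of 19 were called higher (15.4% of all genes), in myelinating Schwann cells 3 of 19 (8.46%), in endothelial cells 2 of 19 (8.72%) and in mural cells 2 of 19 (9.92%). The median log2 fold change of the 19 members was 1.06 in satellite glia and -1.12 in neurons, and over all genes it was 0.00 and -0.05. By summed level 9 of the 19 were highest in satellite glia, 6 in neurons, 3 in mural cells and 1 in myelinating Schwann cells. The filter shaped these counts, since a member could pass it through the class where it was high. Cdh15 stood at 87.1 CPM in satellite glia and at 4.44 to 11.8 in the other 4 classes. Cdh3, with 3159 UMIs in neurons, did not pass. The balance of calls and medians therefore depends on the filter, and with no filter more members were called in neurons. Because classes were made from the same nuclei, these p-values describe the size of a difference against the spread of pools.

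**Figure D1:**
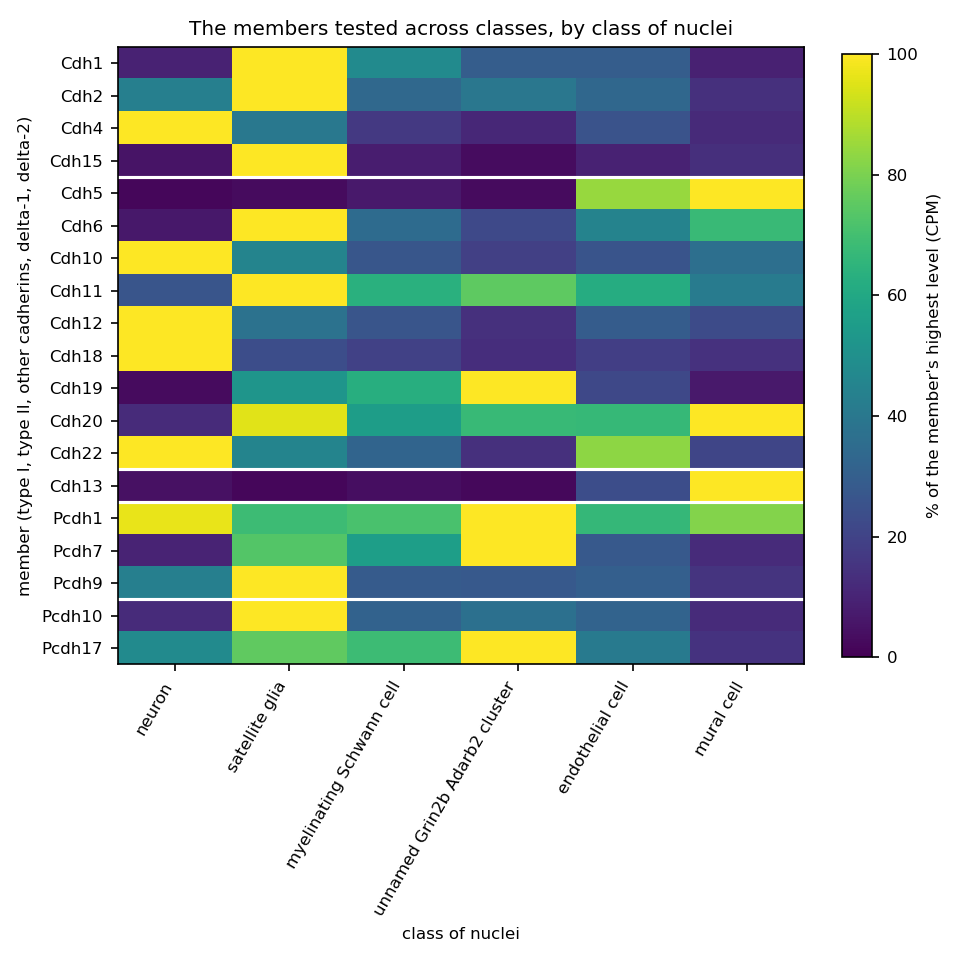
Level (CPM, pools summed) of the 19 members tested (rows) in 5 classes and the unnamed Grin2b clusters, summed (columns), each as percent of that member's highest class. Cdh18, Cdh4, Cdh12 and Cdh10 are brightest in neurons, Cdh15, Cdh1 and Pcdh10 in satellite glia, Cdh5 in endothelial and mural cells and Cdh13 in mural cells.

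Direct contrasts between classes gave the same division. They used the same summed counts and the same 19 members, so they are not a separate test of it. Between neurons and satellite glia 6 of 19 members were called higher in neurons (14.4% of all genes) and 10 of 19 higher in satellite glia (15.6%). Between satellite glia and myelinating Schwann cells 7 of 19 members were called higher in satellite glia (3.96% of all genes) and 1 of 19 higher in Schwann cells (5.76%). All 4 type I cadherins tested were among the 7. The median log2 difference of the members was -1.05 for neurons over satellite glia, beside -0.04 over all genes, and 0.66 for satellite glia over Schwann cells, beside -0.00 over all genes.

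Among the type I cadherins, Cdh4 (R-cadherin, first described in retina) belonged to neurons. It stood at 541 to 755 CPM in the neurons of the 12 pools (median 644) and at 193 to 308 in satellite glia (median 253). No satellite glia value reached the lowest neuronal value. Its level in neurons was higher than in the mean of the other classes by 2.40 ± 0.07 on the log2 scale (SE, adjusted p of 7.49e-50), and higher than in satellite glia by 1.51 ± 0.08 (adjusted p of 3.76e-31). Its summed level in satellite glia was 39.9% of that in neurons. The neuron markers summed to 66.2% there, but single markers ran from 25.6 to 135% of their neuronal level (median 51.4%). The part of neuronal RNA in the glial value of Cdh4 was not tested.

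Cdh15 (M-cadherin, best known from muscle precursor cells) was the member with the largest satellite glia contrast. In satellite glia its pools ran from 60.7 to 130 CPM (median 88.6), in neurons from 2.48 to 7.62 (median 4.13) and in myelinating Schwann cells from 0 to 18.9 (median 6.21). The satellite glia range lay wholly above both others. The log2 difference from the other classes was 3.56 ± 0.18 (adjusted p of 1.11e-32), from neurons 4.13 ± 0.15 (adjusted p of 1.02e-43) and from Schwann cells 3.59 ± 0.26 (adjusted p of 3.88e-22). Within satellite glia the level differed by cluster: it was 43.5 CPM in the cluster led by Kctd12, Niban1 and Acsbg1 (772 nuclei), 70.3 in that led by Col25a1, Hey2 and Ccbe1 (279 nuclei) and 130 in that led by Tnc, Fbln2 and Tyrp1 (525 nuclei), with pools summed and no test.

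Cdh1 (E-cadherin, which in peripheral nerve seals the layered membranes of Schwann cells) was also a glial gene. Satellite glia held 495 to 692 CPM (median 529), myelinating Schwann cells 176 to 339 (median 254) and neurons 35.8 to 80.1 (median 49.8). These 3 ranges did not overlap. It was called in satellite glia at 2.39 ± 0.08 log2 (adjusted p of 8.95e-44) and in Schwann cells at 1.06 ± 0.11 (adjusted p of 1.43e-14). The Schwann cell call rests close to the 2-fold limit: it was lost without FL2 (0.999), without FR1 (0.996) and when the members were kept among the clustering genes (0.61).

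Cdh2 (N-cadherin, the most widespread cadherin of nervous tissue) was measured at 654 to 833 CPM in satellite glia (median 747) and at 298 to 357 in neurons (median 310). It was higher in satellite glia in all 12 pools, by 1.05 ± 0.07 log2, and was called there against the other classes at 1.78 ± 0.07. Cdh3 (P-cadherin) was not tested in the class fit. It stood at 27.5 to 38.0 CPM in neurons and at 0 to 23.0 in satellite glia, with no overlap.

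Type II cadherins, 9 of the 19 members tested, supplied 4 of the 5 neuronal calls. The other 5 type II members tested were at least 2-fold lower in neurons at an adjusted p under 0.05 by edgeR. Cdh18, a cadherin of central and peripheral neurons, stood at 323 to 437 CPM in neurons (median 363), 49.2 to 125 in satellite glia (median 82.7) and 46.0 to 97.6 in myelinating Schwann cells (median 70.0). Every neuronal value lay above every glial value. The difference was 2.61 ± 0.07 log2 from the other classes (adjusted p of 5.70e-52) and 2.25 ± 0.09 from satellite glia (adjusted p of 3.39e-41). Its summed level in satellite glia was 23.8% of the neuronal level.

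Cdh12 and Cdh10 lie beside Cdh18 on rat chromosome 2 and were neuronal as well. Cdh12 stood at 147 to 248 CPM in neurons (median 176) and at 36.0 to 106 in satellite glia (median 71.4), a difference from the other classes of 1.97 ± 0.09 log2 (adjusted p of 1.52e-35) and from satellite glia of 1.58 ± 0.11 (adjusted p of 4.64e-25). Cdh10 stood at 118 to 184 CPM in neurons (median 138) and at 20.2 to 90.4 in satellite glia (median 61.5), a difference from the other classes of 1.81 ± 0.10 (adjusted p of 1.50e-30). Neither gene's neuronal and satellite glia ranges overlapped. Their summed satellite glia levels were 37.8 and 45.2% of neurons, and the part of neuronal RNA in those glial values was not tested. Cdh22 was called in neurons at 1.46 ± 0.15, with 39.2 to 54.3 CPM in neurons and 0 to 54.4 in satellite glia, ranges that overlap.

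Cdh19 (a type II cadherin of the Schwann cell lineage) was the main glial member of its group. It stood at 551 to 831 CPM in satellite glia (median 678), 644 to 1003 in myelinating Schwann cells (median 824) and 23.4 to 57.8 in neurons (median 39.7). Both glial ranges overlapped each other and neither reached the neuronal range. It was called higher in Schwann cells at 2.34 ± 0.07 log2 (adjusted p of 1.64e-47) and in satellite glia at 1.95 ± 0.07 (adjusted p of 1.50e-41). Neurons were lower than satellite glia by 3.95 ± 0.08 (adjusted p of 3.07e-64). The unnamed Grin2b and Adarb2 clusters together held still more Cdh19, 1031 to 1684 CPM (median 1296), above the Schwann cell value in all 12 pools; with pools summed it was 1243 and 1400.2 CPM in the larger and the smaller of them. They also held 8 fibroblast markers at 7064 CPM, beside 5551 in the named fibroblasts, 8 markers of myelinating Schwann cells at 8462 CPM, beside 14050 in the named Schwann cells, and 7 markers of non-myelinating Schwann cells at 9895 CPM, beside 6403.

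Cdh6 (K-cadherin), Cdh20 and Cdh11 (OB-cadherin, known from bone and mesenchyme) completed the type II calls in satellite glia. Cdh6 stood at 484 to 671 CPM in satellite glia (median 583) and at 23.6 to 50.6 in neurons (median 36.8), a difference of 3.82 ± 0.09 log2 (adjusted p of 2.32e-60). Its mural range was wide, 108 to 576 CPM (median 387). Cdh20 was called in satellite glia at 1.06 ± 0.08, with 130 to 316 CPM there (median 215), 143 to 300 in mural cells (median 214) and 21.7 to 36.7 in neurons (median 28.5). Satellite glia and mural cells did not differ beyond their spread in Cdh20. Cdh11 was called in satellite glia at 1.14 ± 0.13. Among the classes its highest values were those of the 3 pools with enough fibroblast nuclei, 276, 315 and 605 CPM from 10 to 15 fibroblast nuclei each. With pools summed, neurons as a class held 45.2 CPM of Cdh11 and satellite glia 171. The neuron subcluster led by Htr4 and Hs6st2, described below, held 1140.

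**Figure D2:**
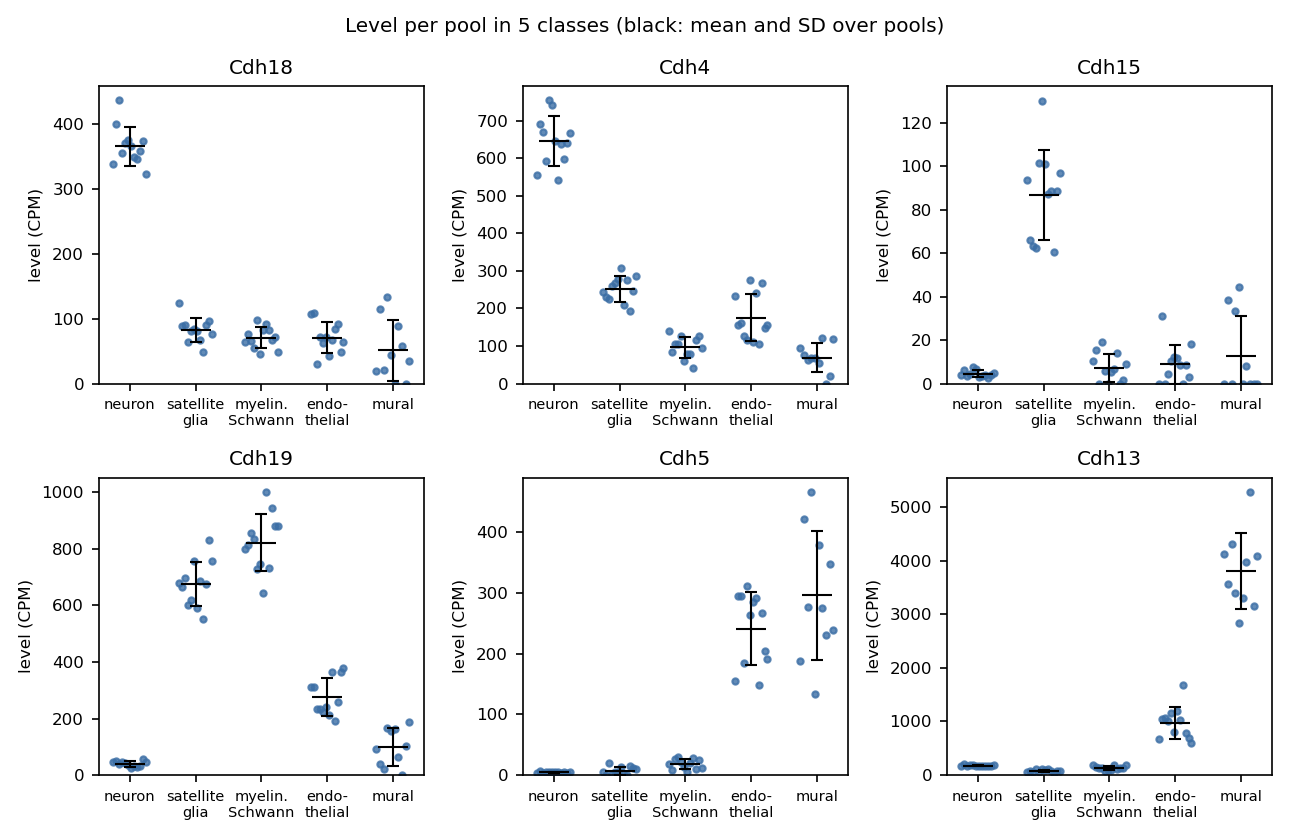
CPM of Cdh18, Cdh4, Cdh15, Cdh19, Cdh5 and Cdh13 in 5 cell classes; each point is 1 pool and the bars give the mean and SD over 12 pools (10 for mural cells). The neuronal points of Cdh18 and Cdh4, the satellite glia points of Cdh15 and the mural points of Cdh13 lie apart from the other classes.

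Cdh5 (VE-cadherin, the junction protein of endothelium) and Cdh13 (T-cadherin, which is anchored in the membrane without a cytoplasmic tail) were the members called in the vessel classes. With pools summed, Cdh5 stood at 182 CPM in the described fibroblasts and 122 in skeletal muscle, beside 233 in endothelial cells, and Cdh13 at 858 in skeletal muscle, beside 902 in endothelial cells. Cdh5 stood at 148 to 311 CPM in endothelial cells (median 266), 134 to 467 in mural cells (median 276) and 3.44 to 6.05 in neurons (median 4.36). It was called in endothelial cells at 3.41 ± 0.13 log2 (adjusted p of 1.38e-42) and in mural cells at 3.60 ± 0.20 (adjusted p of 8.35e-29), and mural cells were the higher of these classes in 6 of 10 pools. The 7 endothelial markers summed to 2606 CPM in endothelial cells and to 2593 in mural cells, and their part in the mural value of Cdh5 was not tested. Within the endothelial class Cdh5 was 313 CPM in the cluster led by Adgrf5 and Adgrl4, 459 in that led by Pgm5 and Pkhd1l1, and 63.6 in that led by Cyyr1, where Cdh1 stood at 322 and Cdh19 at 483.

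Cdh13 showed the clearest order of vessel classes. Mural cells held 2829 to 5291 CPM (median 3771), endothelial cells 594 to 1689 (median 1023) and neurons 165 to 202 (median 175), with no overlap between these ranges. The call in mural cells was 4.05 ± 0.09 log2 (adjusted p of 1.57e-59) and in endothelial cells 1.63 ± 0.08 (adjusted p of 9.58e-32). Neurons were still above satellite glia by 1.40 ± 0.13, in 12 of 12 pools.

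Between satellite glia and myelinating Schwann cells, Cdh5 was the member called higher in Schwann cells, at 1.22 ± 0.32 log2 (adjusted p of 0.00101; the coded difference is -1.22). It rests on 61 UMIs in Schwann cells, 5.20 to 29.8 CPM, and 36 in satellite glia, 0 to 19.9 CPM. Schwann cells held more of the endothelial marker RNA, 231 CPM beside 93.7, and its part in the result was not tested. Without MR1 Cdh13 was called as well. Cdh19 was lower in satellite glia by 0.31 ± 0.08 log2, below the 2-fold limit.

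Of the 3 delta-1 protocadherins tested, Pcdh9 and Pcdh7 were called in satellite glia and Pcdh1 in no class. Pcdh9, a long gene whose transcripts are abundant in nuclei, stood at 2716 to 3672 CPM in satellite glia (median 3177), 1168 to 1519 in neurons (median 1347) and 624 to 1155 in myelinating Schwann cells (median 889). All 3 ranges lay apart. Satellite glia were above Schwann cells by 1.82 ± 0.09 log2 (adjusted p of 1.29e-32). Pcdh7 stood at 906 to 1123 CPM in satellite glia (median 999), 670 to 932 in Schwann cells (median 804) and 99.1 to 189 in neurons (median 129), and was called in both glial classes, at 1.78 ± 0.08 and 1.36 ± 0.08 (adjusted p of 2.08e-27 in Schwann cells). The unnamed Grin2b and Adarb2 clusters together were above both, at 1255 to 1601 CPM (median 1372). Pcdh1 was close to even, with 109 to 149 CPM in neurons and 62.3 to 128 in satellite glia.

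Of the delta-2 protocadherins Pcdh10, known from cell movement and synapse removal, was called in satellite glia. It stood at 208 to 352 CPM there (median 282), at 45.5 to 111 in Schwann cells (median 92.7) and at 31.1 to 42.1 in neurons (median 34.8). The satellite glia range did not overlap the others, and the log2 difference was 2.27 ± 0.08 from the other classes (adjusted p of 2.72e-42) and 1.64 ± 0.10 from Schwann cells (adjusted p of 6.98e-27). Pcdh17 stood at 266 to 332 CPM in satellite glia, 222 to 457 in Schwann cells and 173 to 225 in neurons, and missed the 2-fold limit in satellite glia at 0.96 ± 0.09.

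Apart from Cdh3, with 3893 UMIs, the 13 rows not tested across classes had 3 to 1259 UMIs each. Cdh16, Cdh17, Pcdh20 and Pcdh8 had 3, 10, 11 and 24 UMIs in all kept nuclei. Pcdh12, which is known from endothelium, had 38 UMIs in endothelial cells and 5 in satellite glia, 18.8 and 1.18 CPM with pools summed. Pcdh18 had 24 UMIs in mural cells at 47.1 CPM and 250 in neurons at 2.57 CPM. Cdh7, Cdh8 and Cdh9 had 569, 813 and 1107 UMIs in neurons, spread unevenly over the neuron types described next. With no filter on low counts Pcdh12 and Pcdh18 were called in endothelial cells, Pcdh18 also in mural cells, Cdh3, Cdh7, Cdh9 and Cdh26 in neurons and the second Pcdh7 row in satellite glia.

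The promoter sequences of Cdh19, Cdh15, Cdh18 and Cdh8 are printed to show how unlike they are, from RefSeq on the GRCr8 assembly. Of the 31 member symbols, 21 had a window of 250 bases before to 50 after the start. The printed members were each tied to a class or a neuron type. Others so tied, such as Cdh5, Cdh9, Cdh11 and Cdh13, had no window. The deposited counts were made on another build, so the coordinates belong to GRCr8 alone. Capitals mark a TATA box (TATAAA) and a SOX core (AACAAT) in Cdh19, and GC boxes (GGGCGG, or CCGCCC on the opposite strand) in Cdh15 and Cdh8. Cdh18 holds none of the motifs searched. The windows lie at chr13:28533704-28534003 on the minus strand for Cdh19, chr19:67814407-67814706 on the plus strand for Cdh15, chr2:75075345-75075644 on the plus strand for Cdh18 and chr19:5500216-5500515 on the plus strand for Cdh8. The deposited list identifies these genes, in the same order, as ENSRNOG00000029841, ENSRNOG00000027954, ENSRNOG00000010535 and ENSRNOG00000056643.
Cdh19: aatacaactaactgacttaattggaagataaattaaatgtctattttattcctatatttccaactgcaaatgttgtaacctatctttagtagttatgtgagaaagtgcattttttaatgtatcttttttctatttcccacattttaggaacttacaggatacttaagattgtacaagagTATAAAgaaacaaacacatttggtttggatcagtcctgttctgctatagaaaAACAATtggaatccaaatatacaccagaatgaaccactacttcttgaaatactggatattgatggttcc
Cdh15: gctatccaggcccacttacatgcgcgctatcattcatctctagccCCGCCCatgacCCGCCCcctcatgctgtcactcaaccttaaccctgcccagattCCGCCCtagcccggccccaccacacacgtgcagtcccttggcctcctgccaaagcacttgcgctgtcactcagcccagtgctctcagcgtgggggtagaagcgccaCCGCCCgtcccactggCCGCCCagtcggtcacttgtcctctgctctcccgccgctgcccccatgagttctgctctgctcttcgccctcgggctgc
Cdh18: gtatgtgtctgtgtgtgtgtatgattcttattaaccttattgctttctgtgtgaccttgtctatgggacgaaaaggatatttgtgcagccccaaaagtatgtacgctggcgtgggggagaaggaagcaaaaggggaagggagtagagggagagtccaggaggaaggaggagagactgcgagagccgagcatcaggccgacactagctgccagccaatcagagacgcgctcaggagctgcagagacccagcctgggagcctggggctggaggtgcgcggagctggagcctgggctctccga
Cdh8: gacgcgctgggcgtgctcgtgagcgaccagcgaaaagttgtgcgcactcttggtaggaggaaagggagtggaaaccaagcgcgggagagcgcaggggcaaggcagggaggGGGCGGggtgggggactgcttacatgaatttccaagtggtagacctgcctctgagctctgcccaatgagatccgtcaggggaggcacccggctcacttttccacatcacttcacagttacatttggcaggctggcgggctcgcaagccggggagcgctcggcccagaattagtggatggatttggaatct

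Cdh19, glial in these data, had the window poorest in G and C among the members, 30%, with 0 CpG, at percentile 1.09 of the 33469 windows in the table. The Cdh15 window had 65% G and C, 18 CpG and 5 GC boxes, and the Cdh8 window 60.3%, 18 CpG and 1 GC box. The median window had 51.7% and 7 CpG. Both strands were searched for 4 motifs, and no match in the printed windows overlaps another. The SOX core was in 1 of 21 members and 11.7% of all windows, the TATA box in 2 (Cdh19 and Pcdh8) and 14.2%, the GC box in 7 and 33.1%, and the E-box CAGCTG in 2 (Cdh12 and Cdh7) and 15.1%. These letters were chosen with the matches known and describe the windows only.

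Neurons fell into 24 subclusters, named here by their leading genes, and 23 had at least 10 nuclei in at least 6 pools. By marker lists 13 subclusters (18828 nuclei) were nodose-like, named after the placode-derived neurons whose list includes P2rx2. A further 6 (2635 nuclei) were jugular-like, named after the crest-derived neurons whose list includes Prdm12 and Drgx, and 5 (3992 nuclei) matched neither list. No single listed gene was required for the nodose-like name, and origin was not tested. All 22 members that passed the filter differed among subclusters by the quasi-likelihood test, as did 93.9% of all genes, so that count separates nothing. By size, 15 of 22 members were at least 4 times higher in their top subcluster than in the median subcluster, with no pseudocount, beside 13.8% of all genes. Scarce members can pass the filter through the subcluster where they peak, so their ratio follows in part from their being tested. The median subcluster held 2.26 CPM of Cdh8, 3.40 of Cdh9, 1.91 of Cdh7 and 2.41 of Cdh26. The 15 include Cdh19 and Pcdh10, which peaked in the Ddc subcluster with the most satellite glia marker RNA, described below. The ratios of top to median given below for single members were taken after adding a pseudocount of 5 CPM to both levels. The top subcluster was nodose-like for 8 members, jugular-like for 7 and of neither list for 7.

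**Figure D3:**
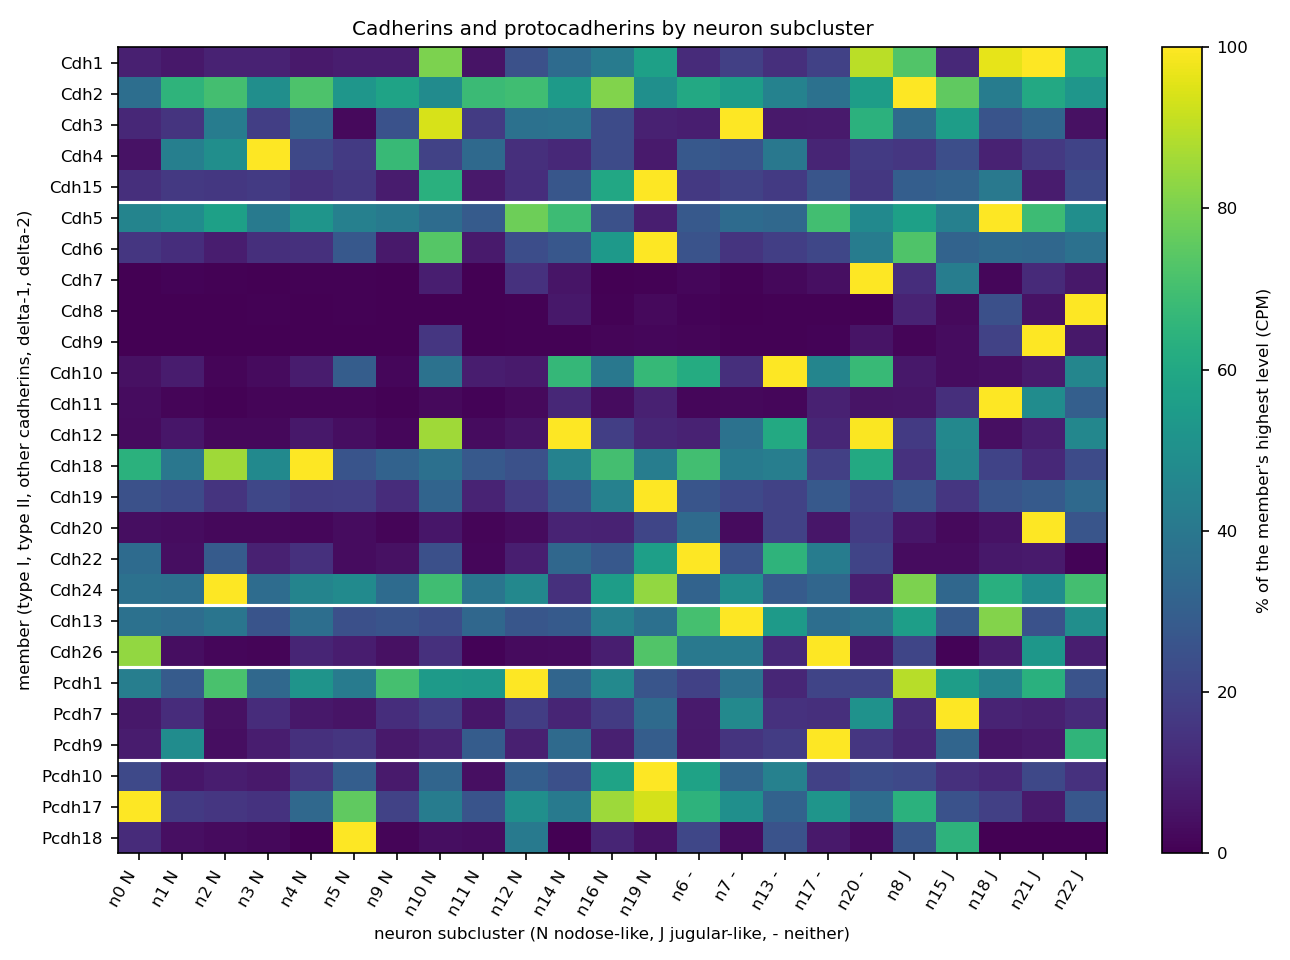
Level of 26 members with at least 400 UMIs (rows) in 23 neuron subclusters (columns), each as percent of that member's highest subcluster. Cdh8, Cdh9 and Cdh20 are high in 1 subcluster each, Cdh12 and Cdh10 in 4 and 5, and Cdh2 stays above 50% in 16.

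The sharpest patterns belonged to type II cadherins. Cdh8, known from dorsal root ganglia as a cadherin of cold-sensing neurons, was highest in the jugular-like subcluster led by Trpm8 and Plcd4 (n22 in the heat map of subclusters); Trpm8 encodes the cold and menthol channel. Its CPM there was 493.2 in ML1, 431 in ML2, 461 in MR2, 1075 in MR3, 547 in FL2, 26.2 in FL3 and 555 in FR3. The low value of FL3 is 1 UMI in 10 nuclei, and the other 6 pools lie within a range of 431 to 1075. The next subclusters, led by Htr4 and Hs6st2 (n18) and by Tac1 and Calca (n8), held 117 and 48.3 CPM, and the median subcluster 2.26. The top level was 66.9 times the median one, from 200 UMIs in 178 nuclei (adjusted p of 3.69e-108 for any difference among subclusters). Among the nuclei kept out of the classes, a mixed cluster of 353 nuclei also led by Trpm8 held Cdh8 at 37.4 CPM.

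Cdh9, a cadherin of selective synapses in the hippocampus, was highest in the jugular-like subcluster led by Poteg and Kcnj6 (n21). There its 7 pools ran from 363 to 718 CPM (median 450), while the subcluster led by Htr4 and Hs6st2 ran from 55.1 to 214 (median 93.5) and the nodose-like one led by Spon1 and Tmem233 (n10) from 54.4 to 158 (median 81.6). The first range lay above both others, which overlapped. The top was 62.7 times the median subcluster (adjusted p of 1.83e-135).

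Cdh20 peaked in the same Poteg and Kcnj6 subcluster, at 248 to 670 CPM (median 523). Next came the Nxph1 and Rnf220 subcluster (n6) at 95.1 to 205 CPM (median 155) and the Trpm8 one at 78.5 to 179 (median 127). Its ratio of top to median was 16.4 (adjusted p of 2.70e-120). The first range lay above both others.

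Cdh11 was highest in the subcluster led by Htr4 and Hs6st2, at 718 to 1654 CPM over 8 pools (median 1179). The Poteg and Kcnj6 subcluster followed with 412 to 684 (median 545) and the Trpm8 one with 144 to 523 (median 282). The first range did not reach the second, while the Poteg and Trpm8 ranges overlapped. The ratio of top to median was 32.1 (adjusted p of 5.34e-158), and when at least 20 nuclei per pool were asked for, which left out all 3 of these subclusters, it was 5.25. All 3 were jugular-like.

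Cdh7 was highest in a small subcluster of neither list led by Gabrg1 and Syndig1 (n20), at 53.5 to 184 CPM (median 108). The jugular-like Tafa1 and Ccdc172 subcluster (n15) came next at 14.5 to 73.6 (median 47.1), lower in 10 of 11 pools, with ranges that overlap. The ratio of top to median was 16.9 (adjusted p of 1.94e-105), on 194 UMIs.

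Cdh10 and Cdh12 shared their high subclusters in part. Cdh10 was highest in the subcluster led by Pcdh15 and Ndst4 (n13), at 692 to 869 CPM (median 784), above the next subcluster in 12 of 12 pools. The Gabrg1, Ddc (n19) and Pappa2 (n14) subclusters followed with medians of 541, 533 and 526.1 CPM, which did not differ beyond their spread. Cdh12 stood at 698 to 1321 CPM in the Pappa2 and Csmd3 subcluster (median 1064), at 760 to 1526 in the Gabrg1 one (median 1044) and at 769 to 1182 in the Spon1 and Tmem233 one (median 841). The first was above the second in 6 of 12 pools, so these tops cannot be ordered. The ratios to the median were 11.7 for Cdh10 (adjusted p of 2.11e-195) and 9.94 for Cdh12 (adjusted p of 4.81e-194).

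Cdh22 was highest in the Nxph1 and Rnf220 subcluster, at 156 to 282 CPM (median 236), before the Pcdh15 and Ndst4 subcluster at 104 to 210 (median 143). It was higher in the first in 12 of 12 pools although the ranges overlapped. In the Trpm8 subcluster 1 UMI was counted. The ratio to the median was 6.45 (adjusted p of 1.22e-145). Cdh18, the broadest of the neuronal type II members, ran from 83.2 CPM in the Poteg subcluster to 732 in the Hunk and Pde1a subcluster (n4), with pools of 669 to 882 there.

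Type I members were graded. Cdh4 followed an order of nodose-like subclusters: the Itgae and Chrm2 subcluster (n3) held 1521 to 2339 CPM (median 1842), the Itgae and Ntsr1 one (n9) 1123 to 1581 (median 1316) and the Cysltr2 and Gdpd4 one (n2) 809 to 1156 (median 948). The first was above the second in 12 of 12 pools. The largest subcluster, led by Fhip1a and Col27a1 (n0), was the lowest for Cdh4 at 70.7 to 122 CPM (median 93.0), so that 2 nodose-like groups stood at opposite ends. Cdh1 stood at 246, 238 and 221 CPM in the Poteg, Htr4 and Gabrg1 subclusters, an order that held in 3 of 6 pools and cannot be read. Cdh2 was the flattest abundant member, from 190 CPM in the Fhip1a subcluster to 525 in the Tac1 and Calca subcluster. Cdh3 was highest in the Edn3 and Chrdl1 subcluster (n7), with 79.2 to 168 CPM, and in the Spon1 and Tmem233 one, with 84.1 to 133.

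Among the protocadherins, Pcdh9 was highest in the subcluster led by Arhgap6 and Cyct (n17), at 5742 to 10503 CPM (median 7844). The Trpm8 subcluster held 3478 to 6137 (median 5672) and the Tafa4 and Esr1 subcluster (n1) 3597 to 4751 (median 3991). The lowest level, 218 to 430 CPM (median 320), was in the Cysltr2 and Gdpd4 subcluster, where Cdh4 was among its highest. Pcdh7 was highest in the jugular-like Tafa1 and Ccdc172 subcluster at 662 to 1428 CPM (median 786), before the Gabrg1 subcluster at 310 to 599 (median 483). The ratios to the median were 7.22 for Pcdh9 (adjusted p of 7.44e-174) and 7.58 for Pcdh7 (adjusted p of 5.47e-147). Pcdh17 was highest in the Fhip1a and Col27a1 subcluster with 398 to 502 CPM, level with the Ddc one (354 to 616), and Pcdh1 in the Spp1 and Kcna1 subcluster (n12) with 170 to 355 and the Tac1 and Calca subcluster with 199 to 305, ranges that overlap. Pcdh8, at 24 UMIs in all, had 15 of them in the Hmcn1 and Agtr1a subcluster (n16).

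Cdh19, Cdh6, Cdh15 and Pcdh10, which the class fit placed in satellite glia, were each highest in the subcluster led by Ddc and Dcc, at 183, 155, 21.4 and 169 CPM. That subcluster also held the most satellite glia marker RNA of any, 23.2% of the level in satellite glia. The Hmcn1 and Agtr1a subcluster held 16.1%, the Spon1 and Tmem233 subcluster 10.04% and the others 1.97 to 7.53%. The part of glial RNA in these 4 values was not tested.

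Patterns of members were compared over the 23 subclusters by the Pearson correlation of log2(CPM + 5), as a description in which all points share the pools. Over 231 pairs of 22 members the median r was 0.11. The most alike were Cdh6 and Cdh1 (0.80), Cdh11 and Cdh8 (0.79), Cdh1 and Cdh9 (0.77), Cdh6 and Cdh19 (0.77), Cdh11 and Cdh9 (0.76) and Cdh11 and Cdh1 (0.74). Cdh6, Cdh1 and Cdh19 were higher in satellite glia than in neurons, and satellite glia marker RNA ran from 1.97 to 23.2% over the subclusters. The part of glial RNA in these correlations was not tested. The least alike were Cdh10 and Pcdh1, with r of -0.71. Pairs of a member and the next member on its chromosome, which lie 0 to 597 protein-coding genes apart, had a median r of 0.22 over 14 pairs. Cdh10 and Cdh12, with 0 protein-coding genes between them in RefSeq, had 0.67, and Cdh4 and Cdh26, also with 0 between them, had -0.58. On GRCr8 chromosome 19 carries 8 of the rows, chromosome 2 carries 7 and chromosome 15 carries 5.

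Nodose-like and jugular-like neurons were compared directly over the 12 pools. Of 32 members 25 passed the filter. In nodose-like neurons 2 of 25 were called higher (4.62% of all genes) and in jugular-like neurons 9 of 25 (5.4% of all genes). With pools summed, Cdh8 stood at 2.55 CPM in nodose-like and 60.2 in jugular-like neurons, and Cdh7 at 1.69 and 23.2. Such scarce members can pass the filter through their jugular-like sums alone, so their calls follow in part from their being tested. The balance of these counts depends on the filter, and with no filter more members were called in nodose-like neurons. The median log2 difference, nodose over jugular, was -0.49 for the members and 0.02 for all genes. Of the 13 type II cadherins 7 were called higher in jugular-like and 2 in nodose-like neurons. ML3 had 23 jugular-like nuclei and none from the Trpm8, Poteg or Htr4 subclusters, so its jugular-like values are the least certain.

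**Figure D4:**
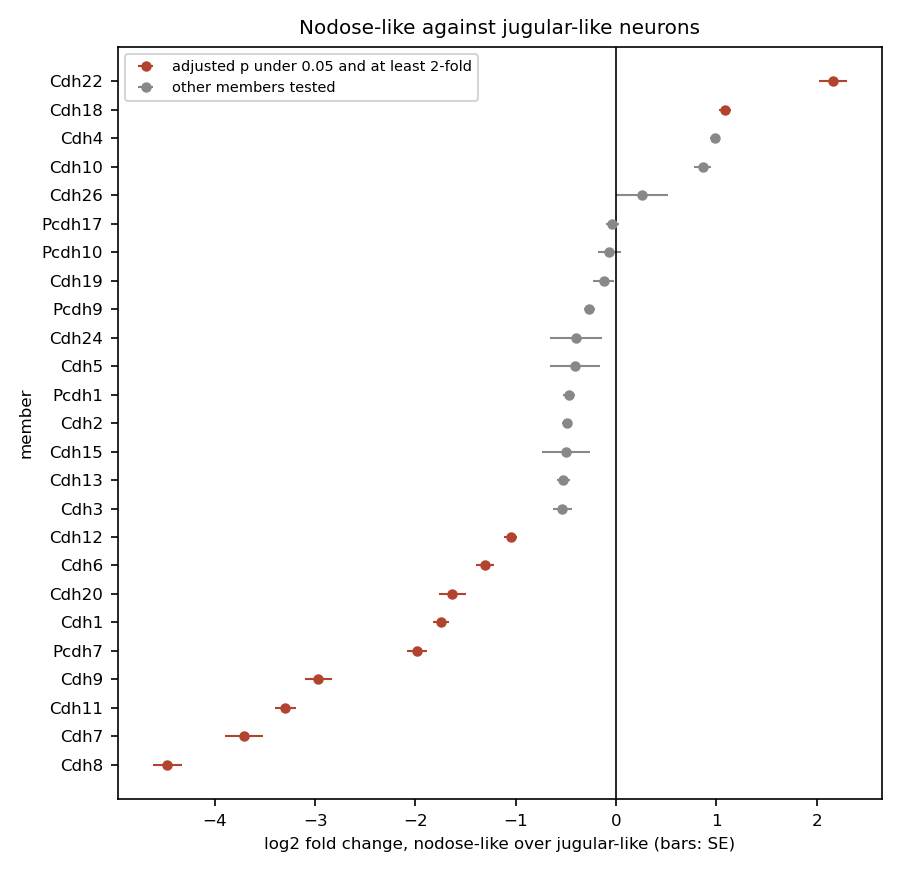
Log2 fold change of nodose-like over jugular-like neurons for the 25 members tested, with SE as bars; values right of 0 are higher in nodose-like neurons. Cdh22 and Cdh18 lie past 1, and 9 members from Cdh12 to Cdh8 lie past -1.

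Cdh22 stood at 28.5 to 43.9 CPM in nodose-like neurons (median 37.7) and at 0 to 15.1 in jugular-like neurons (median 7.31). It was higher in nodose-like neurons in 12 of 12 pools, by 2.17 ± 0.14 log2 (adjusted p of 5.64e-16). Cdh18 stood at 337 to 447 CPM against 132 to 248, again with no overlap, and was higher by 1.09 ± 0.06 (adjusted p of 5.90e-18). Cdh4, with 610 to 847 CPM against 275 to 476, and Cdh10, with 86.8 to 126 against 26.6 to 85.5, were higher in every pool at 0.98 ± 0.05 and 0.86 ± 0.09, under the 2-fold limit.

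On the jugular-like side Cdh8 stood at 10.1 to 88.8 CPM (median 64.2), against 0.702 to 5.28 in nodose-like neurons (median 2.63). The ranges did not overlap, and the coded log2 difference was -4.48 ± 0.15 (adjusted p of 9.86e-25). Cdh7 stood at 11.7 to 33.2 CPM (median 22.5) against 0.447 to 2.84 (median 1.58), a difference of -3.71 ± 0.19 (adjusted p of 1.06e-18). Both genes were higher in jugular-like neurons in all 12 pools.

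Cdh11 stood at 20.3 to 342 CPM in jugular-like neurons (median 228) and at 13.7 to 29.5 in nodose-like neurons (median 23.2). Its value in ML3 was the 20.3 and the only jugular-like value within the nodose-like range. The difference was -3.30 ± 0.10 (adjusted p of 1.45e-25). Cdh9 stood at 0 to 87.5 CPM (median 58.0) against 3.51 to 9.25 (median 7.19), with ML3 again the lowest, a difference of -2.97 ± 0.13 (adjusted p of 1.08e-20). The other members called were Pcdh7 (-1.98 ± 0.10), Cdh1 (-1.75 ± 0.08), Cdh20 (-1.63 ± 0.14), Cdh6 (-1.31 ± 0.09) and Cdh12 (-1.05 ± 0.07). Jugular-like levels of Cdh8, Cdh9 and Cdh11 sum over subclusters that differ widely, as described above.

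Side and labelled sex were tested within neurons, satellite glia and myelinating Schwann cells, where a summed level cannot tell a change in the makeup of a class from a change per nucleus. By edgeR's adjusted p no member was called for side in neurons (0 of 28; 0.129% of all genes; 3 members at an unadjusted p under 0.05), satellite glia (0 of 17; 0.0296%; 1 member) or Schwann cells (0 of 15; 0.1%; 1 member). No member was called for sex in neurons (0 of 28; 0.0645%; 8 members), satellite glia (0 of 17; 0.0445%; 0 members) or Schwann cells (0 of 15; 0%; 2 members), nor for the interaction of side and sex in neurons (0 of 28; 0%; 2 members). Over all genes tested an unadjusted p under 0.05 was reached by 2720 of 13958 for sex in neurons, 946 of 13958 for side and 539 of 13958 for the interaction. In satellite glia it was reached by 286 of 6746 genes for side and 371 for sex, and in Schwann cells by 275 of 4980 for side and 247 for sex. DESeq2 also called 0 members in each, except for sex in neurons, where it called Pcdh7 and Cdh6, 2 members.

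The smallest p for sex in neurons was that of Pcdh7. Male-labelled pools stood at 156 ± 29.5 CPM (SD, n = 6), from 111 to 189, and female-labelled pools at 115 ± 13.9, from 99.1 to 134. The ranges overlapped. The difference, female over male, was -0.47 ± 0.11 log2 (SE, adjusted p of 0.0710 by edgeR). Cdh6 differed in the same direction by -0.50 ± 0.12, at 43.0 ± 8.01 CPM (SD, n = 6) under the male label and 31.0 ± 5.56 under the female label.

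Pcdh7 and Cdh6 are both higher in jugular-like neurons, and the share of those neurons differed between pools. Over the male-labelled pools it ran from 1.61% of neurons (ML3) to 25.03% (ML1), with a median of 12.4%. Over the female-labelled pools it ran from 2.64% (FR2) to 20.6% (FL2), with a median of 5.96%, so the groups overlapped widely. Within nodose-like neurons alone Pcdh7 stood at 80.5 to 122 CPM in male-labelled pools (median 93.3) and at 65.4 to 101 in female-labelled pools (median 82.1), and Cdh6 at 24.6 to 42.2 (median 37.0) and 21.7 to 34.1 (median 26.9). The part of the jugular-like share in the difference between the labelled sexes was not tested. Without ML1 and FL1 the Pcdh7 difference was -0.39 and 0 members were called.

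**Figure D5:**
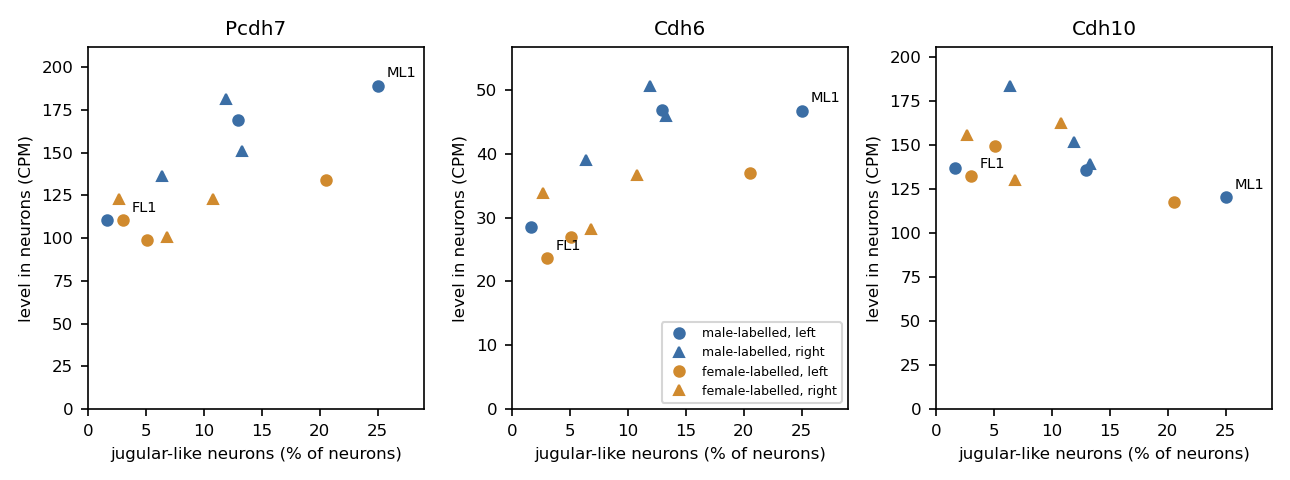
CPM of Pcdh7, Cdh6 and Cdh10 in the neurons of each pool against that pool's jugular-like share of neurons in percent; colours give the labelled sex. The share runs from 1.61% in ML3 to 25.03% in ML1, and male-labelled and female-labelled points overlap in all 3 panels.

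The remaining smallest p-values were further from the threshold. Cdh10 in neurons stood at 154 ± 18.7 CPM in right pools and 132 ± 11.8 in left pools (SD, n = 6 each), a difference of 0.21 ± 0.07 log2 (SE, adjusted p of 0.559 by edgeR). Cdh20 in satellite glia was lower on the right by 0.27 ± 0.12 (coded -0.27, adjusted p of 0.997), and its sex difference there was 0.16 ± 0.12 (adjusted p of 0.928). In Schwann cells Cdh12 differed by side at 0.65 ± 0.29 (adjusted p of 0.843) and Cdh6 by sex at -0.29 ± 0.13 (adjusted p of 0.953). Cdh19 in neurons stood at 27.8 ± 4.77 CPM in the FL pools, 45.1 ± 13.4 in FR, 43.6 ± 5.38 in ML and 41.4 ± 4.16 in MR (SD, n = 3 each). Its interaction of side and sex was 0.81 ± 0.24 (adjusted p of 1.00). None of these is larger than the spread between pools after adjustment.

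The partners that hold cadherins at the membrane were taken as a list of catenins, nectins, afadin, shedding proteases and WAVE complex subunits, of which 21 were found and 20 tested across classes. In neurons 6 of 20 were called higher, beside 15.4% of all genes: Ctnna2 (alpha-N-catenin, 2.56 ± 0.08), Wasf1 (2.03 ± 0.13), Ctnnd2 (delta-catenin, 1.88 ± 0.06), Wasf3 (1.24 ± 0.10), Cyfip2 (1.16 ± 0.06) and Nectin3 (1.01 ± 0.07). Lower in neurons were Plekha7 (-2.49 ± 0.20), Ctnna1 (alpha-E-catenin, -1.60 ± 0.07), Adam10 (-1.28 ± 0.06), Ctnnd1 (p120-catenin, -1.22 ± 0.06) and Ctnnb1 (beta-catenin, -1.01 ± 0.06). Ctnna2 stood at 4114 to 4954 CPM in neurons and at 768 to 1202 in satellite glia, while Ctnna1 stood at 77.8 to 106 in neurons and at 286 to 475 in satellite glia. The alpha-catenin ranges thus lay apart in opposite directions.

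In satellite glia 0 of 20 partners were called higher by edgeR or DESeq2, beside 6.82% of all genes, and 8 were higher at an unadjusted p under 0.05. All 8 but Wasf1 also had an adjusted p under 0.05 by edgeR. The largest of these differences, Wasf3 at 0.90 ± 0.13, lay below the 2-fold limit. Lower in satellite glia at an adjusted p under 0.05 were Afdn, Pkp4, Nectin2, Ctnna2 and Ctnnb1. In myelinating Schwann cells Plekha7, a protein of adherens junctions, was called at 2.91 ± 0.10, with 286 to 460 CPM against 73.5 to 167 in satellite glia. Afdn (afadin, which connects nectins to actin) was called in endothelial cells at 1.13 ± 0.09 and in mural cells at 1.13 ± 0.14, and Pkp4 in endothelial cells at 1.20 ± 0.10. Between nodose-like and jugular-like neurons Arvcf was higher in nodose-like (1.14 ± 0.10) and Nectin1 in jugular-like neurons (coded -1.71 ± 0.09). No partner was called for side or sex in any class, and by size among neuron subclusters 2 of 21 passed the 4-fold limit, beside 13.8% of all genes.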

How the data were processed

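The submitters' processing notes name the build mRatBN7.2, R 4.3.2 and Seurat 4.1.3; aligner and annotation release: not given in the sources used here. Raw UMI counts per nucleus and gene were deposited by the authors, with no normalisation. Members and lists were chosen with earlier results of these data known. Nuclei under 300 genes or over 5% mitochondrial UMIs were removed. Clustering (scanpy 1.11.5, leidenalg 0.10.2, seed 1, resolution 1 in neurons and 2 in other nuclei) left the members out of its genes. Non-neuronal classes needed 3 markers of a list at 2-fold, with 1 of that list among the 10 leading genes. The list with the largest share of its markers past that fold gave the name. Neurons needed 3 neuron markers at 1.5-fold over the clusters that took a non-neuronal name. Clusters with neuron markers above 0.65 of their neuronal level were kept out, a limit set after seeing the clusters. Neuron subclusters that matched a non-neuronal list were kept out of the neurons. Counts were summed per pool and class or subcluster (at least 10 nuclei, at least 6 pools; 20 nuclei for side and sex) and tested with edgeR 4.0.16 under R 4.3.3 (quasi-likelihood, TMM, filterByExpr, pool as a block; for side and sex an additive model). P-values were adjusted over all genes tested by the Benjamini-Hochberg method, and SE is the log2 fold change divided by the square root of F. CPM uses the pool's class total. Pools were mapped by their names in the nucleus table; GEO's samples are the 8 sublibraries. DESeq2 1.42.0 and the other alternatives are in the closing section. Members named in full were, by rule, up to 4 per class, 3 each way between 2 classes, 10 among subclusters by the ratio of highest to median, 4 each way between nodose and jugular, and the smallest p of each side or sex test. Scripts were tested on simulated data.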

Additional observations from a re-analysis of the deposited data

Results flagged for a closer look

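Cdh20 in satellite glia stood at 315.7 CPM in FL2. The other 5 female-labelled pools ran from 207 to 230 CPM and the other 5 left pools from 207 to 237 CPM, so its gap to the nearest pool took up more than the usual share of the range in both groupings. These are the same pool counted in overlapping groups, from 65 satellite glia nuclei, and chance alone marks about 1 in 20 groups in this way.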

How the results depend on the processing

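Most results kept their direction and their side of the threshold: of the alternatives to counts of members 385 stayed within 1.5 times of the reported count and 10 did not, and of those for single members 951 kept their call. A count of 0 that stayed 0 was taken as unchanged, and many alternatives left out only 1 pool. These totals therefore include outcomes that could hardly move. With no filter on low counts more scarce members were tested, and calls came to 4 in endothelial cells, 9 in neurons, 23 for the 4-fold rule among subclusters, 11 for neurons over satellite glia, 4 for nodose-like over jugular-like neurons and 3 for sex in neurons. DESeq2 called 2 members for sex in neurons. Leaving out 1 pool at a time gave 0 to 4 members for sex in neurons (4 without ML3, 2 without MR1) and 1 to 2 lower in satellite glia than in Schwann cells (2 without MR1, where Cdh13 joined Cdh5). Those for sex were Pcdh7 and Cdh6, joined by Cdh12 with no filter and by Cdh12 and Cdh20 without ML3. Pcdh7 passed the threshold under DESeq2 (-0.47), with no filter (-0.46), without ML3 (-0.55) and without MR1 (-0.51); over its alternatives the adjusted p ran from 0.00118 to 0.197. Keeping clusters with much neuronal RNA in the classes, an alternative chosen after seeing the data, left 8 members called in satellite glia and 6 in neurons. With the members among the clustering genes 86.4% of nuclei kept their class, and no mural class was named, so it gives no value. Subcluster ratios moved most with the clustering and the nuclei required: Cdh8 ran from 7.58 to 75.1, Cdh11 from 5.25 to 41.9 and Cdh9 from 11.6 to 69.5. The cause of these changes was not tested. No label ties equally numbered pools of both sides to the same rats, and their deviations did not pair them (r from -0.13 to 0.41, over 0.1 in 1 of 6 pairs); with a replicate block the tests of side and interaction called 0 members. Depth limits what can be said of members under about 500 UMIs and of mural cells.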
